A study of Mus musculus with 6 samples.

Results

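Of the 14236 circRNA probes on a mouse array, 48 were well above background on all 3 arrays from myoblasts and on none of the 3 arrays from myotubes. They were chosen by the detection call alone, a 0 or 1 that the scanner software gave each spot. The cells were C2C12, an immortal line of mouse muscle precursors. Myoblasts were kept in growth medium with 10% fetal bovine serum, and myotubes came from cells moved to medium with 2% horse serum at 80 to 90% confluence. No other treatment and no genetic change is given for either group, and the labels do not say how long the cells stayed in horse serum. The study names 3 independent experiments for each state, measured as total RNA with 1 dye on 1 array each.

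Circular RNAs (circRNAs) arise by back-splicing, in which the end of a downstream exon is joined to the start of an upstream exon of the same transcript. With no free end they resist the enzymes that degrade linear RNA from its ends, so they are long-lived, and a dividing cell thins them out with each division. Myoblasts divide, while myotubes have left the cell cycle, fused and begun to build sarcomeres. Several circRNAs change in level when myoblasts differentiate, and some of them act on the growth or fusion of these cells. The files used here give neither a host gene nor a sequence for the circRNA probes, so each is named by its identifier, and what the circRNA of any of the 48 does is not known here.

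The 48 probes were 0.337% of all circRNA probes, and the opposite pattern, all myotube arrays and no myoblast array, was held by 504 probes (3.54%). Among the 7980 probes well above background on all myoblast arrays, the 48 made up 0.602%. The myotube arrays were brighter as a whole. The 75th percentile of their processed signal, the intensity after the software's background subtraction, was 37.6, 53.3 and 55.0, against 33.2, 36.4 and 30.2 on the myoblast arrays. Myotube 1 lay in the same slide row as the myoblast arrays, and the other 2 myotube arrays lay in the second row. Of 37 marker genes of muscle, fibroblast and fat cells listed for a check of the labels, only Hspb7, a small heat shock protein of muscle, was found among the 44 of 50 gene probes that could be given a symbol. Its signal read 9.12, 9.78 and 15.5 in myoblasts against 71.5, 75.8 and 162 in myotubes. Markers of cycling myoblasts and of other cell types were not among them, so the labels could not be checked further. Each array read the RNA of a whole culture, and fewer cells that hold a circRNA cannot be told apart from less of it in each cell.

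The members were dim even where they were detected. Their mean processed signal in myoblasts ran from 5.59 to 60.4, with a median of 10.8. The lowest signal that the software still called well above background was 4.30, 4.38 and 4.55 on the 3 myoblast arrays. On these arrays 47.5%, 49.5% and 47.0% of all circRNA probes were brighter than the median member. The summed signal of the 48 came to 654 ± 52.9 for myoblasts and 131 ± 11.7 for myotubes (SD, n = 3 arrays). As a share of all circRNA signal it made 0.0291% ± 0.00158 for myoblasts and 0.00535% ± 0.000217 for myotubes (SD, n = 3 arrays), so the 48 held a very small part of what the array read in either state. No member spot was saturated or carried an outlier flag, of 288 spots.

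Most of the myotube signals were low but not at zero. The software gives a second, weaker call, positive and significant, when a spot's signal exceeds background by the software's own significance test. On myotube 1, myotube 2 and myotube 3 that call was given to 43, 43 and 46 of the 48 members. It was given on all 3 myotube arrays to 39 members (81.2%), on 2 arrays to 6 and on 1 array to 3, and no member lacked it on every array. Among the 3483 circRNA probes that were well above background on no myotube array, 35.6% had the weaker call on all 3. Most of these probes, 3299, were well above background on no myoblast array either, unlike the members. Of the 504 myotube-only probes, 339 (67.3%) were positive and significant on all 3 myoblast arrays. "Detected only in myoblasts" therefore holds at the stricter call and for none of the 48 at the weaker one.

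The negative controls put these low signals in scale. Each array carried 77 spots of a structural negative control and 150 spots of 15 negative probes named MM9NEGATIVE. No structural negative spot was positive and significant on a myotube array, but 50, 40 and 53 of the MM9NEGATIVE spots were. The median spot signal minus the median local background, called net signal here and given in scanner units, had a median over the members of 7.0, 6.0 and 6.0 on the 3 myotube arrays. The structural negative spots had medians of 4.0, 2.0 and 2.0 there. On those arrays 29, 33 and 37 of the 48 members exceeded the highest structural negative spot, a count not made over all circRNA probes. In myoblasts all 48 did so on every array, with member medians of 13.5, 13.0 and 12.2 against 2.0, 1.5 and 2.0. This follows largely from the rule, since members had the stricter call on every myoblast array and no structural negative spot had it. Some MM9NEGATIVE spots reached higher, with a brightest spot of 13.4, 9.53 and 7.59 in processed signal on the myoblast arrays. Most of those well above background belonged to 1 of the 15 probes, MM9NEGATIVE017. With that probe left out, the brightest spot read 13.4, 3.92 and 5.68 on the myoblast arrays. On the myotube arrays it then read 6.28, 5.81 and 6.36. Only 15 of the 48 members lay above the brightest MM9NEGATIVE spot on all 3 myoblast arrays, and 16 did with MM9NEGATIVE017 left out. None did on any myotube array, where the brightest spot of all read 10.1, 8.85 and 10.8. That too follows from the rule, since members lacked the stricter call there and read at most 4.42, 4.63 and 4.9. Neither count was made over all circRNA probes.

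The brightest member was ASCRP4010966. Its processed signal was 51.2, 67.3 and 62.9 in myoblasts, and 1.1, 3.38 and 3.83 in myotubes. Every myoblast value was thus far above every myotube value, and myotube 1 was the lowest. The means were 60.4 ± 8.33 and 2.77 ± 1.46 (SD, n = 3 each), and the myotube mean, not well above background, was 4.59% of the myoblast mean. In net signal the same spots read 45.0, 56.0 and 52.0 in myoblasts and 5.0, 7.0 and 8.5 in myotubes, again with wide separation. After scaling to the array's 75th percentile, the processed signal was at least 18.4-fold lower in myotubes, or 4.2 on the log2 scale. Such a bound sets the myoblast mean against, on each myotube array, the higher of the probe's own signal and the lowest signal that was called well above background. Unless said otherwise, bounds hold for the scaled processed signal only. The log2 difference measured on the scaled processed signal, with no such limit, was -5.16. Other measures of these spots gave less, at -3.48 on scaled net signal and -2.13 in the log2 values deposited with the series.

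ASCRP4011907 was the next in order, and its values agreed closely between arrays. Its processed signal was 40.7, 48.7 and 48.2 in myoblasts and 3.60, 3.21 and 2.81 in myotubes. The bound was at least 14.0-fold, or 3.81 on the log2 scale. The measured log2 difference was -4.37 on scaled processed signal and -3.3 on scaled net signal. Unlike ASCRP4010966, ASCRP4011907 was positive and significant on all 3 myotube arrays, with a net signal of 8.5, 7.5 and 6.5. These 2 probes stood apart from the other 46, of which the brightest had a mean of 28.6. Together they carried 14.3%, 16.3% and 18.3% of the summed member signal on the 3 myoblast arrays.

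ASCRP4012195, ASCRP4013740, ASCRP4014111 and ASCRP4004979 followed, with myoblast means from 23.0 to 28.6. ASCRP4012195 read 24.1, 38.5 and 23.3 in myoblasts and 3.75, 2.88 and 3.58 in myotubes, with myoblast 2 the highest. ASCRP4013740 was more even in myoblasts, at 27.4, 27.2 and 21.7, and gave 1.69, 3.83 and 1.61 in myotubes. The groups lay far apart in both, with bounds of at least 8.53-fold and 7.75-fold. ASCRP4014111 read 20.2, 31.8 and 24.2 in myoblasts and 1.41, 1.08 and 1.40 in myotubes, close to the floor of the processed signal, with a bound of at least 7.64-fold. ASCRP4004979 was steady in myoblasts, at 20.4, 26.1 and 22.6, but uneven in myotubes, at 1.08, 4.25 and 4.89. Its last value lay just above the lowest signal that was called well above background on myotube 3, 4.82, although the spot itself was not so called. The neighbours in this order of levels overlapped in their values, apart from the 2 brightest probes, which overlapped with none of the other 4.

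The processed signal has a floor that touches some of these values. Over all circRNA probes, spots without the weaker call lay between 0.858 and 1.77 on the 6 arrays, and on myotube 2 they all read 1.02. Of the 144 member spots on myotube arrays, 12 were of this kind, in 9 members. The value of 1.1 for ASCRP4010966 on myotube 1 was one of them. The ratio of a spot's signal to the software's error estimate for it had a median of 2.74 on the myotube arrays (range 1.01 to 4.44) and of 7.13 on the myoblast arrays (range 4.63 to 9.84) over the members.

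Replicate spread in myoblasts varied widely among the members. The coefficient of variation (CV) over the 3 myoblast arrays had a median of 17.2% and ran from 3.22% to 39.8%. The smallest belonged to ASCRP4011565, at 17.6, 18.5 and 17.4, and the next to ASCRP4008325, at 8.61, 9.21 and 9.04. In myotubes ASCRP4011565 gave 0.997, 2.27 and 1.61, and ASCRP4008325 gave 0.908, 3.56 and 1.58, so both lay well below their narrow myoblast range. The greatest CV belonged to ASCRP4008593, at 11.3, 18.1 and 8.34, and the next to ASCRP4007515, at 15.9, 17.8 and 7.87. Their myotube values of 3.02, 1.02 and 1.63 and of 2.63, 4.63 and 3.33 lay below every myoblast value. For all of these probes the separation follows largely from the rule, which required the call on every myoblast array and on no myotube array. With 3 arrays a single CV is itself imprecise. After scaling, the highest of the 3 myoblast arrays was myoblast 1 for 15 members, myoblast 2 for 12 and myoblast 3 for 21. The rule itself required the call on all 3 of them.

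The order of the members was shared between the myoblast arrays but hardly by the myotube arrays. Across the 48 members, scaled log2 signals of 2 myoblast arrays correlated at 0.862 to 0.893. Between 2 myotube arrays the values were 0.098, 0.432 and 0.527, and between a myoblast and a myotube array they ran from -0.292 to -0.022. These are descriptions over 48 probes read on the same arrays. The rule required every myotube spot to lack the call, which left the myotube signals little range.

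The difference was larger for brighter members, which the rule fixes in part, since a member of any brightness had to lack the call on the myotube arrays. The percentages that follow are of measured signals, and the myotube signals in them were not well above background. The 22 members with a myoblast mean from 5 to below 10 kept a median of 42.4% of their signal, and their bounds ran from 1.71 to 3.01-fold. The 18 members from 10 to below 20 kept 19.7%, with bounds of 3.25 to 5.65-fold. The 6 members from 20 to below 40 kept 10.9%, with bounds of 6.07 to 8.53-fold. The 2 brightest kept 5.79%. Members were also a smaller share of the probes detected on all myoblast arrays as brightness rose, at 2.03% of 1082, 0.875% of 2056, 0.357% of 1679 and 0.149% of 1341 probes. All detected probes in these ranges had medians of 154%, 146%, 138% and 132% of their myoblast signal on the unscaled myotube arrays.

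On the scaled log2 values the members had a median difference, myotube minus myoblast, of -2.72, with a range from -5.16 to -1.01. Over all 14202 circRNA probes without a flagged spot the median was -0.05. All 48 members were lower by 1 or more on that scale, as were 6.07% of all probes. For all 48, every myoblast array was above every myotube array, as for 22.4% of all probes. These values come from the contrast that chose the members and carry no test. The median bound was at least 3.28-fold, and 42 members had a bound of at least 2 (7.40% of all probes detected on the 3 myoblast arrays did), 13 of at least 4, 3 of at least 8 and 1 of at least 16. Without scaling between arrays 27 members had a bound of at least 2. The share over all detected probes was worked out for the scaled bound of 2 only, so the other counts describe the members alone.

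The unprocessed net signal separated the groups less fully. Every myoblast array was above every myotube array for 39 of the 48 members, as for 3.85% of all circRNA probes, and the groups overlapped for 9 members. ASCRP4005060 went the other way. Its net signal was 7.5, 7.0 and 7.0 in myoblasts and 8.5, 7.0 and 9.0 in myotubes, a mean of 7.17 ± 0.289 against 8.17 ± 1.04 (SD, n = 3 each). Its processed signal nevertheless read 5.69, 6.43 and 5.35 in myoblasts and 3.88, 4.51 and 4.18 in myotubes. The net signals are not scaled between arrays. After scaling to the 75th percentile the log2 difference in net signal was -0.37, so the direction for this probe turned with the scaling of the net signal. ASCRP4005060 was the only member whose mean net signal was not higher in myoblasts, also after the median of the structural negative spots was taken off each array. With that step the groups did not overlap for 42 members, and 4.48% of all probes were higher in myoblasts in this way.

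Other members near the limit were ASCRP4004854 and ASCRP4001503. ASCRP4004854, the dimmest in myoblasts, read 6.03, 5.18 and 5.55 there and 1.56, 3.17 and 2.96 in myotubes, and its bound was 1.71-fold, the smallest of all. ASCRP4001503 had the highest myotube mean, with 4.80, 6.46 and 6.61 in myoblasts and 3.41, 4.51 and 4.90 in myotubes. It was the 1 member whose unscaled processed signals overlapped, since myotube 3 read above myoblast 1. That the other members did not overlap follows largely from the rule, and the share over all circRNA probes was not worked out. ASCRP4001759, whose myotube mean of 3.99 was the third highest after those of ASCRP4001503 (4.28) and ASCRP4005060 (4.19), was brighter in myoblasts, at 16.5, 8.66 and 11.4.

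A total of 46 probes were well above background on all myoblast arrays and on 1 myotube array. Of these, ASCRP4003641 read 53.4, 53.1 and 55.2 in myoblasts and 2.52, 2.83 and 5.26 in myotubes, a log2 difference of -4.54. Its myoblast level lay between those of the 2 brightest members, and it was left out through the call on myotube 3 alone. ASCRP4010847, at 8.55, 6.87 and 11.3 in myoblasts and 1.1, 2.81 and 5.68 in myotubes, was left out by the same array. A further 22 probes had the call on 2 myoblast arrays and on no myotube array. The brightest was ASCRP4004234, at 7.59, 9.74 and 3.55 in myoblasts and 3.66, 2.08 and 4.30 in myotubes, with overlapping groups. Without myotube 3 the rule would have taken 74 probes in place of 48.

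The deposited value table of the series, on a log2 scale, held all 48 members among its 11128 probes, 78.2% of the circRNA probes. All 9681 probes that were well above background on at least 3 arrays were in that table. The members' deposited means ran from 4.85 to 6.69 in myoblasts and from 4.33 to 4.68 in myotubes. The groups did not overlap for any member there either, with myoblasts higher in all 48, as for 21.1% of the 11128 deposited probes. The differences were far smaller, from -2.13 to -0.18 with a median of -0.80. ASCRP4010966 again had the largest difference, from 6.54, 6.71 and 6.81 to 4.38, 4.62 and 4.67. ASCRP4005060 had the smallest, from 4.87, 4.81 and 4.89 to 4.71, 4.62 and 4.70. No source used here says how that table was made.

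The place of the members on the array was uneven along its 192 rows. Rows 1 to 48 held 6 members, rows 49 to 96 held 10, rows 97 to 144 held 13 and rows 145 to 192 held 19. Each of these bands held 24.9% to 25.2% of all circRNA probes, and the last one held 39.6% of the members, 21.4% of the 504 myotube-only probes and 25.9% of the 58 lower probes described next. The median log2 difference over all probes was -0.035, -0.023, -0.039 and -0.077 in the 4 bands. On the myoblast arrays 58.8%, 60.2% and 57.3% of probes in the first band were well above background. In the last band 62.0%, 64.2% and 60.4% were. On the myotube arrays the share was 64.2%, 72.0% and 73.9% in the first and 66.6%, 68.9% and 72.8% in the last. By columns, 4 like bands held 13, 16, 8 and 11 members. The part of array position in the calls was not tested. No 2 members had identifiers that follow each other. Identifiers that begin with ASCRP401 made up 41.7% of the members and 29.8% of all circRNA probes, and no source used here says what the numbers stand for.

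Beside the members, 58 probes were well above background on all 6 arrays and at least 4-fold lower in myotubes on the scaled values. Their median signal was 69.7 in myoblasts and 15.3 in myotubes, and their median log2 difference was -2.38 against -2.72 for the members. Both medians follow in part from how the sets were made, since the 58 had to differ by 2 or more on that scale. The 504 myotube-only probes had a median signal of 2.66 on myoblast and 9.30 on myotube arrays, and a median bound of 1.40-fold, against 3.28-fold for the members. A bound of at least 2 was held by 23.6% of them and by 87.5% of the members. Both sets were made by the detection call, read before scaling on arrays of different brightness, so these figures are set side by side with no test. Scaling lowers the brighter myotube arrays against the myoblast arrays, which raises the members' bounds and lowers those of the myotube-only probes. Without scaling the members' median bound was 2.27-fold, and 27 of the 48 had a bound of at least 2. The unscaled bounds of the 504 were not worked out. With 1 common scaled level for all arrays, at 15.1% of each array's 75th percentile, 126 probes were above it on all myoblast arrays and below it on all myotube arrays, and 264 showed the reverse. That level kept 45 of the 48 members and lost ASCRP4002990, ASCRP4001503 and ASCRP4004854.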

How the data were processed

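Each array was an Agilent Feature Extraction 11.0.1.1 file. Per the file headers, its processed signal is an intensity after background subtraction and spatial detrending, with no scaling between arrays, and the spot and background medians are intensities in scanner units. The 0 or 1 detection calls are other values per spot that the software made, per the file headers. No source used here says how the authors made the deposited log2 values.

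Spots with an outlier flag (43 to 91 an array) were left out and spots of 1 probe averaged on the log2 scale. Each array's 75th percentile over its circRNA, gene and other non-control probes was then subtracted from the log2 signals, with pandas 2.3.3 in Python 3.11.15. Normexp (offset 50) and quantile alternatives used limma 3.58.1 in R 4.3.3. A bound sets each myotube array at the higher of the probe's own signal and the lowest circRNA signal called well above background there. The code for the rule and the bound was tested on simulated data. That test used the same limit for every array and probes lowered from far above it to far below. It does not cover signals near the limit.

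The rule uses the contrast between the states, so no test was made. Members and rules were chosen with earlier results of these data known. Probes were named as the 6 brightest, the 6 with the greatest bound, the 3 dimmest in myoblasts, the 3 highest in myotubes and those with the 2 greatest and 2 smallest CVs; for probes just outside the rule, up to 3 of each kind could be named. Of those lists of 3, ASCRP4010847, ASCRP4003641 and ASCRP4004234 were given. ASCRP4002990 was named after its values were seen. The marker and host gene lists served only where a probe had a gene name, which no circRNA probe had. Intensities on 6 arrays give no counting depth, and the number of arrays limits the precision.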

Additional observations from a re-analysis of the deposited data

How the results depend on the processing

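The number of members rests on the detection call. It was 18 with the weaker call, which kept 0 of the 48, 94 with 1 myotube array allowed and 126 at a common scaled level. It lay between 52 and 74 with 1 array left out. The highest negative probe as the limit gave 64, of which 15 were members. The median log2 difference of -2.72 kept its direction under every setting tried. It was -2.19 without scaling, -1.72 on net signal, -2.38 on net signal less the negative spots (a setting chosen after seeing the data), -2.28 on slide row 1 alone, where myotube 1 is the only myotube array, -0.44 after normexp correction and -0.80 in the deposited values. The offset of 50 in normexp is itself larger than most members' signals. The median bound of 3.28-fold was 2.27 without scaling and 4.67 on net signal less the negative spots, and 27 members kept a bound of 2 or more without scaling. For the 14 named members, none of the 238 recomputed log2 differences reversed, and 52 moved by more than the spread between arrays. All but the unscaled setting used scaled or deposited values. The members were chosen by this contrast on these arrays, so a kept direction, here or for the median, lends no support of its own. Unscaled net signal was not among these settings, and on it ASCRP4005060 was higher in myotubes, at 8.17 against 7.17. No fit with the replicate number as a block was made, since the results come from no test. The low signal over background of the members limits every fold given for them.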

Other observations

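The 18 probes that were positive and significant on all myoblast arrays and on no myotube array were a different set, with none of the 48 among them. Their median myoblast signal was 1.76 and the highest 3.86, and none was well above background on all myoblast arrays. They kept between 26.3% and 80.9% of that signal in myotubes, where the software's floor value stood in for it.

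The brightest of the 8 spots around a member had a median signal of 130, 152 and 132 on the myoblast arrays, where the median over all circRNA probes was 139, 152 and 130. On the myotube arrays the medians were 146, 167 and 204 against 157, 223 and 222. A neighbour above 1000 stood beside 3, 3 and 2 of the 48 members on the myoblast arrays (6.25%, 6.25% and 4.17%), against 8.95%, 10.2% and 9.57% of all circRNA probes. On the myotube arrays it stood beside 5, 6 and 6 members (10.4%, 12.5% and 12.5%), against 9.84%, 14.0% and 14.4%.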
